A study of Mus musculus with 2 samples.

Results

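The insulin-like growth factor (IGF) family comprises secreted ligands, their cell-surface receptors and the binding proteins that hold the ligands outside the cell. Its 10 genes examined here (Igf1, Igf2, Igf1r, Igf2r and Igfbp2 to Igfbp7) were chosen by name from the 31253 genes listed in both libraries, and all 10 had at least 1 unique molecular identifier (UMI) in each library. IGF1 and IGF2 bind the IGF1 receptor, a tyrosine kinase that signals through insulin receptor substrates, PI3K and AKT to growth and survival. The IGF2 receptor, which is also the cation-independent mannose 6-phosphate receptor, takes IGF2 up for degradation. The binding proteins lengthen the life of the ligands and limit their access to the receptor until proteases such as PAPP-A cut them. In bone, IGFs made locally and released from matrix are known for their effects on osteoblasts, and Igfbp5 and Igfbp4 are abundant products of bone-forming and connective tissue cells.

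The cells came from the periosteum, the sheath of connective tissue on the bone surface, of the femurs and tibias of 8-week-old mice. One library was made from Prx1 Cre; Ai9/+ mice (control) and 1 from Prx1 Cre; Ai9/+; Piezo1 fl/fl mice, so both groups carried the Cre and the Ai9 reporter. Prx1 Cre acts in the mesenchyme of the limb bud and its descendants, and Piezo1 encodes a mechanically gated ion channel. Prx1-positive cells were sorted and captured on the BD Rhapsody platform. The number of mice behind each library is not given in the sources used here, and with 1 library per genotype no difference between genotypes has a replicate check.

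After filtering, 4418 control cells with a median of 4812.5 UMIs and 5084 Piezo1 fl/fl cells with a median of 4593 UMIs were kept. Levels are given as CPM, a gene's UMIs over all UMIs of a group of cells, scaled to 1000000. Piezo1 itself was sparse, with 132 UMIs in the control library (5.18 CPM, 95% interval 4.33 to 6.14) and 69 UMIs in the Piezo1 fl/fl library (2.42 CPM, 1.88 to 3.06). Tags at the 3′ end can lie outside a deleted part of a gene, so this level does not check the genotype. The libraries shared 50 barcodes, 26 of them among kept cells, and 0 of these 26 had identical profiles. Intervals here are exact and cover counting error only.

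Cells were clustered in each library alone without the IGF family genes, and clusters were named from marker genes outside the family. This gave 10 named classes in each library, of which 8 were found in both. Stem and progenitor cells of the skeleton (SSPC) appeared as SSPC-1-like cells, with 785 control and 876 Piezo1 fl/fl cells that were named from Col8a1, Egfl6, Fgf18, Itgbl1, Cd200 and Cdkn1c. The leading genes of both SSPC-1-like clusters also included the tendon and cartilage genes Chad, Fmod and Cilp2. The SSPC-2-like class, named from osteogenic genes such as Tnn, Postn, Mmp13, Alpl and Runx2, held 750 control and 561 Piezo1 fl/fl cells. Its 10 leading genes included Ibsp and Bglap2 in both libraries and Bglap in the Piezo1 fl/fl library only, where it is called SSPC-2/osteoblast-like. The control library had 60 mature osteoblast-like cells in a cluster of their own. At a finer clustering, 242 of the 810 control cells of these classes were named mature osteoblast. The control SSPC-2-like class thus also held osteoblast-like cells. The sort also held macrophage-like cells (415 and 291), endothelial-like cells (172 and 142) and, in the Piezo1 fl/fl library, 88 other blood-like cells led by neutrophil genes. A cluster of 144 Piezo1 fl/fl cells led by Igkc and Cd74 stayed unnamed.

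Igf1, the main ligand of the family, was highest in SSPC-1-like and tendon-like cells. Its control levels were 1590 CPM (1554 to 1627) in SSPC-1-like cells, 1587 CPM in tendon-like cells, 1090 CPM in fibroblast-like cells, 424 CPM in macrophage-like cells and 341.7 CPM (326.2 to 357.8) in the SSPC-2-like class. It was low in mural-like cells, at 16.1 CPM, and in the 60 mature osteoblast-like cells, at 14.6 CPM from 8 UMIs. The low osteoblast level depended on the clustering. At a finer clustering Igf1 stood at 475.6 CPM (441.9 to 511.1) in 242 control cells named mature osteoblast. It stood at 246.9 CPM in the 560 SSPC-2-like cells found there. Levels in the Piezo1 fl/fl library were 2135 CPM (2090 to 2181) in SSPC-1-like cells, 2119 CPM in tendon-like cells, 1127 CPM in fibroblast-like cells, 714.1 CPM in SSPC-2/osteoblast-like cells, 591.2 CPM in macrophage-like cells and 29.3 CPM in mural-like cells. SSPC-1-like and tendon-like cells could not be ordered in either library, since their ratio was 1.00 (0.953 to 1.05) in control cells and 1.01 (0.972 to 1.04) in the Piezo1 fl/fl library. The share of cells with an Igf1 UMI, after each cell was thinned to 2500 UMIs, was 31.3% of 719 SSPC-2-like, 83.4% of 709 SSPC-1-like and 2.82% of 248 mural-like control cells. Without thinning these shares were 42.9%, 90.8% and 5.74%, at median depths of 5947.5, 5211 and 3745 UMIs.

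Igf2, the second ligand and an imprinted gene of fetal growth, was hardly detected. It had 13 UMIs over all kept control cells, 10 of them in SSPC-1-like cells, and 6 UMIs over all kept Piezo1 fl/fl cells. Its order over classes could not be read at this depth. The gene (chr7:142650766-142666816, minus strand, GRCm38) shares exons with Gm49394 on the same strand and with the antisense transcript Igf2os, so even these few UMIs are of uncertain origin.

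Igf1r, the signalling receptor, was the most evenly distributed of the family members with more than a few UMIs. In the control library it ranged from 53 CPM in macrophage-like to 163.9 CPM in SSPC-1-like cells, a span of 3.09-fold (2.51 to 3.85). Among Piezo1 fl/fl classes it ranged from 56.5 CPM in macrophage-like to 160.3 CPM in SSPC-1-like cells, a span of 2.84-fold (2.23 to 3.66). Of the 9 pairs of neighbouring classes in its order, 8 had intervals that covered equality in each library. Igf1 by comparison spanned 109-fold in the control and 72.9-fold in the Piezo1 fl/fl library.

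Igf2r, the receptor that clears IGF2, differed more between classes than Igf1r and was placed differently in the libraries. In the control library it was highest in SSPC-1-like cells, at 302.2 CPM (286.4 to 318.6), followed by SSPC-2-like cells at 186 CPM (174.6 to 197.9). In the Piezo1 fl/fl library it stood at 127.3 CPM (116.5 to 138.8) in SSPC-1-like cells and at 151.4 CPM (138.6 to 165) in SSPC-2/osteoblast-like cells. SSPC-1-like cells held 32.9% of all Igf2r UMIs in the control library and 15.7% in the Piezo1 fl/fl library, while making up 17.8% and 17.2% of the cells. After thinning, 48.4% (44.6 to 52.1) of control and 25.2% (22.1 to 28.5) of Piezo1 fl/fl SSPC-1-like cells had an Igf2r UMI, against 66.9% and 37.9% before it, at median depths of 5211 and 3873 UMIs. The long noncoding RNA gene Airn overlaps Igf2r on the opposite strand, and the strand used in counting is not given in the sources used here.

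The binding proteins carried most of the family's UMIs. Summed over the 6 genes, they made up 1.32% of all UMIs of control fibroblast-like cells, 1.2% of SSPC-1-like cells, 0.103% of SSPC-2-like cells and 0.0455% of mature osteoblast-like cells. In the Piezo1 fl/fl library the corresponding shares were 0.201% in SSPC-2/osteoblast-like, 0.982% in fibroblast-like and 1.23% in SSPC-1-like cells, and the highest share was 1.47% in lining-like cells, which are named from Prg4 and other genes of joint and surface lining. The bone-forming classes were thus at the low end in both libraries, together with macrophage-like cells at 0.0795% and 0.126%. The order of the control SSPC-2-like and mature osteoblast-like shares holds for this clustering only. At a finer clustering Igfbp5 was higher in 242 mature osteoblast cells (1073 CPM) than in 560 SSPC-2-like cells (468.2 CPM). Igfbp3, Igfbp4, Igfbp6 and Igfbp7 were lower in those 242 cells.

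**Figure D1:**
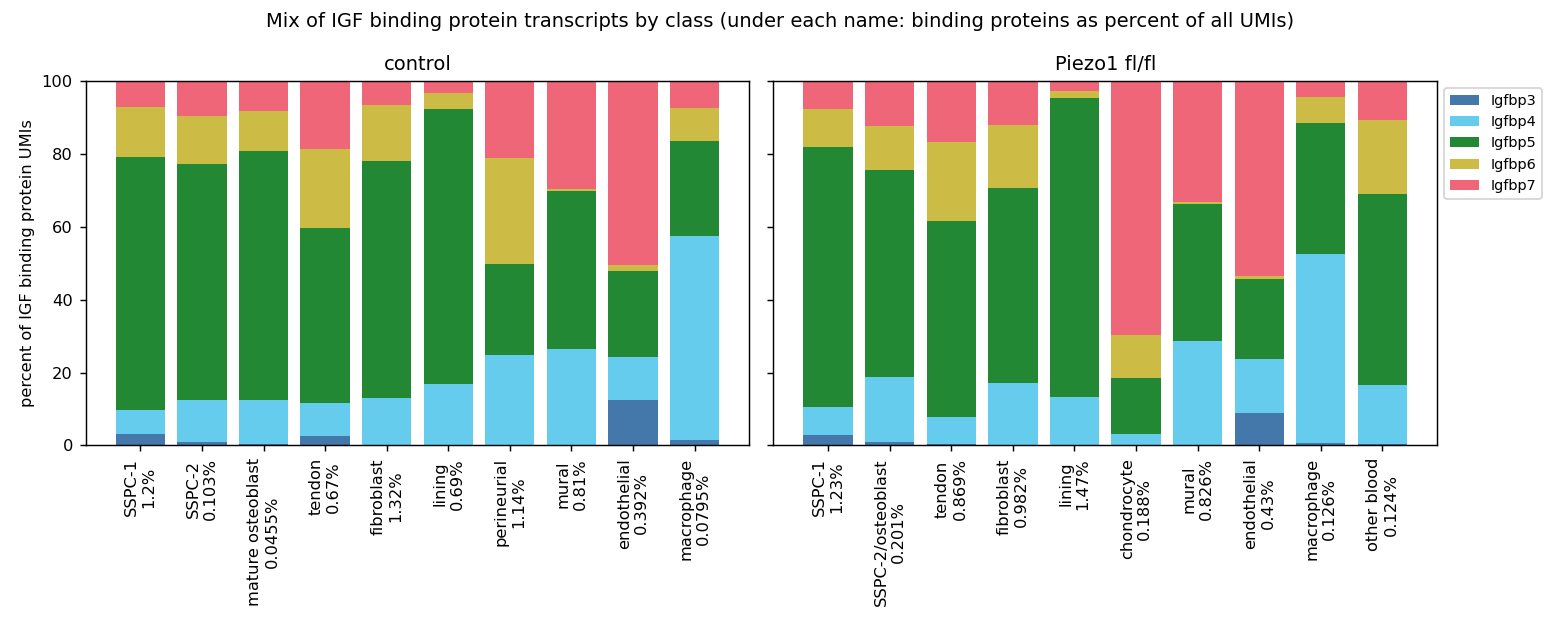
Share of the summed Igfbp2 to Igfbp7 UMIs taken by each binding protein (percent), by class and library. Igfbp5 takes 69.4% and 71.3% in SSPC-1-like cells of the control and Piezo1 fl/fl libraries, and Igfbp7 takes 50.4% and 53.3% in endothelial-like cells.

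The sequences just upstream of the starts of the 5 binding protein genes that differed by 2-fold or more between SSPC-1-like progenitors and SSPC-2-like cells in both libraries with more than 100 UMIs are printed here, since these genes shared a direction of change between the cell types. Each is the stretch of 100 bases before the RefSeq transcript start in GRCm38.p6, 5′ to 3′ on the gene's strand. The stretches are chr11:7213924-7214023 (minus) for Igfbp3, chr11:99041144-99041243 (plus) for Igfbp4, chr1:72874866-72874965 (minus) for Igfbp5, chr15:102144086-102144185 (plus) for Igfbp6 and chr5:77408046-77408145 (minus) for Igfbp7. Capitals mark matches on either strand to the letters TATAAA (the TATA box) or the related letters TATATA and, as a further variant, TTTAAA in the 50 bases before the start, and to CCAAT and the Sp1-type letters GGGCGG anywhere in the stretch.
Igfbp3: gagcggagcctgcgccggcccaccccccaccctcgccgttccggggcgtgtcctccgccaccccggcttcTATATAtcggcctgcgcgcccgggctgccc
Igfbp4: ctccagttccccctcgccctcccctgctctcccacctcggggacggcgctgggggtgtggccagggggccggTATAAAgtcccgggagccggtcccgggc
Igfbp5: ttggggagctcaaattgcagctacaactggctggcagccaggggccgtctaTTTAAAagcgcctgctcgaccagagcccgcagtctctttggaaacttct
Igfbp6: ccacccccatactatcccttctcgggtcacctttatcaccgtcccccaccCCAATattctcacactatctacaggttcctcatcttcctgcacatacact
Igfbp7: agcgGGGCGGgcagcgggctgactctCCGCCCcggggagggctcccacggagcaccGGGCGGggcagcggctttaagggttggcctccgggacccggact

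Igfbp3 and Igfbp4 held a TATA-type match starting 30 and 28 bases before the start, and Igfbp5 held one starting 49 bases before it. Igfbp6 held CCAAT 50 bases before the start, and Igfbp7 held GGGCGG or its reverse complement at 96, 74 and 44 bases. Of 32851 RefSeq promoters, 6.73% had any of the 3 TATA-type motifs in their last 50 bases, 33.8% had CCAAT and 32.7% had GGGCGG within 250 bases before the start. A match of letters is a description of the sequence and not of factor binding. Igfbp5 (chr1:72857932-72874884, minus strand) lies 5458 bases from Igfbp2 (chr1:72824503-72852474, plus strand), which had only 39 UMIs in control cells and 70 in the Piezo1 fl/fl library.

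Igfbp3, the main carrier of IGFs in serum and a gene also made by vessels, was concentrated in endothelial-like and SSPC-1-like cells. Its control levels were 491.6 CPM in endothelial-like, 360 CPM (342.7 to 377.8) in the SSPC-1-like and 171.7 CPM (149.4 to 196.4) in tendon-like cells, against 9.95 CPM (7.45 to 13) in SSPC-2-like and 24.6 CPM in fibroblast-like cells. Levels in the Piezo1 fl/fl library were 380.9 CPM in endothelial-like, 339.4 CPM (321.7 to 357.9) in the SSPC-1-like, 45 CPM (36.4 to 54.9) in tendon-like and 21.1 CPM (16.5 to 26.6) in SSPC-2/osteoblast-like cells. SSPC-1-like cells held 65.8% of all Igfbp3 UMIs in control cells and 66.9% in the Piezo1 fl/fl library. Endothelial-like cells exceeded SSPC-1-like cells 1.37-fold (1.21 to 1.54) in the control library, while in the Piezo1 fl/fl library the interval of this ratio covered equality (1.12, 0.969 to 1.29). At equal depth, 32.4% of control SSPC-1-like, 39% of endothelial-like, 2.78% of SSPC-2-like and 1.61% of mural-like cells had an Igfbp3 UMI, and unthinned these shares were 41.3%, 44.2%, 5.07% and 3.38%. The share in SSPC-2-like cells was thus near that of mural-like cells, and their intervals overlapped (1.71 to 4.26 and 0.441 to 4.08).

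Igfbp5, which binds to extracellular matrix and is abundant in bone and connective tissue, took the largest share of binding protein UMIs in SSPC-1-like, fibroblast-like, lining-like, mural-like and tendon-like cells. The same held in control SSPC-2-like (64.9%) and mature osteoblast-like cells (68.3%) and in Piezo1 fl/fl SSPC-2/osteoblast-like (57%) and other blood-like cells (52.5%). Control cells had 8558 CPM in fibroblast-like, 8315 CPM (8232 to 8400) in the SSPC-1-like, 5189 CPM in lining-like, 3506 CPM in mural-like and 666 CPM (644.3 to 688.3) in the SSPC-2-like class. Piezo1 fl/fl cells had 12093 CPM in lining-like, 8796 CPM (8705 to 8888) in SSPC-1-like, 5267 CPM in fibroblast-like, 4655 CPM in tendon-like and 1148 CPM (1112 to 1184) in SSPC-2/osteoblast-like cells. All 9 pairs of neighbouring classes in its order had intervals off equality in each library, but these intervals leave out the spread between cells. Control fibroblast-like cells exceeded SSPC-1-like cells only 1.03-fold (1.02 to 1.04). At 2500 UMIs per cell their means were 21.5 and 21.2 UMIs and their medians 9 and 11 UMIs, so the order of these classes is not settled. Within SSPC-1-like cells it was spread widely, since at 2500 UMIs per cell the 10th percentile, the median and the 90th percentile were 1, 11 and 53.2 UMIs in the control and 1, 14 and 52 UMIs in the Piezo1 fl/fl library.

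Igfbp4, which mostly holds IGFs back from the receptor, was higher in mural-like and fibroblast-like cells than in SSPC-1-like cells. Control cells had 2822 CPM in the 32 perineurial-like cells, 2136 CPM in mural-like, 1703 CPM in fibroblast-like, 804.5 CPM in SSPC-1-like and 117.5 CPM in SSPC-2-like cells. Piezo1 fl/fl cells had 2368 CPM in mural-like, 1939 CPM in lining-like, 1646 CPM in fibroblast-like, 963.2 CPM in SSPC-1-like and 355.5 CPM in SSPC-2/osteoblast-like cells. In macrophage-like cells Igfbp4 stood at 445.2 and 653 CPM and took 56% and 51.9% of the binding protein UMIs.

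Igfbp6, which prefers IGF2 over IGF1, was shared by SSPC-1-like, fibroblast-like and tendon-like cells. Its control levels were 3302 CPM in perineurial-like, 2043 CPM in fibroblast-like, 1654 CPM in SSPC-1-like, 1462 CPM in tendon-like and 135.7 CPM in SSPC-2-like cells, and it was lowest in mural-like cells at 33 CPM. Levels in the Piezo1 fl/fl library were 1906 CPM in tendon-like, 1695 CPM in fibroblast-like, 1286 CPM in SSPC-1-like, 240.4 CPM in SSPC-2/osteoblast-like and 36.6 CPM in mural-like cells. Its profile over classes was the closest within the family to that of Igf1, with Pearson's r of log2(CPM + 1) of 0.76 over 10 classes in each library. This correlation is a description over classes that share a library and its depth.

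Igfbp7, a related protein of low affinity for IGFs that is known from vessel walls, was highest in mural-like cells, which in the control library could not be ordered against perineurial-like cells (ratio 1.02, 0.914 to 1.13). Control cells had 2416 CPM in mural-like, 2379 CPM in perineurial-like, 1973 CPM in endothelial-like, 838.4 CPM in SSPC-1-like and 97.6 CPM in SSPC-2-like cells. Piezo1 fl/fl cells had 2742 CPM in mural-like, 2291 CPM in endothelial-like, 1311 CPM in the 27 chondrocyte-like, 939.1 CPM in SSPC-1-like and 246.8 CPM in SSPC-2/osteoblast-like cells. The 27 chondrocyte-like cells had summed chondrocyte markers at 14300 CPM but also mature osteoblast markers at 42721 CPM, so their name is loose. The gene (chr5:77349240-77408041, minus strand) overlaps an exon of Polr2b on the opposite strand. Igfbp2, which is best known from liver and brain, had 27 of its 39 control UMIs and 41 of its 70 Piezo1 fl/fl UMIs in SSPC-1-like cells. Its control level was nonetheless highest in the 32 perineurial-like cells, at 30.4 CPM from 5 UMIs, which was 5.11-fold (1.54 to 13.5) that of SSPC-1-like cells at 5.93 CPM.

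Low levels in the classes outside the stroma were set beside those of 7 stromal genes that blood, vessel and mural cells should lack. These genes reached 0.143% to 2.48% of their highest class level in control endothelial-like, macrophage-like and mural-like cells and 0.126% to 4.89% in the Piezo1 fl/fl library. Igf1 in mural-like cells (1.01% and 1.37% of its highest class) and Igfbp6 in mural-like cells (0.999% and 1.92%) lay within that range. Whether these low levels are background was not tested. Igf1 in macrophage-like cells, at 26.7% and 27.7% of its highest class, and Igfbp4 in the same cells, at 15.8% and 27.6%, lay above it. Mural genes went further in endothelial-like cells, with Rgs5 at 25.1% and 82.3% of its mural-like level and Myh11 at 1.76% and 7.02%. Pecam1, Cdh5 and C1qa reached at most 1.35% outside their own class. Summed mural markers in endothelial-like cells were 2280 and 5950 CPM, beside endothelial markers at 7768 and 6635 CPM. Their part in the endothelial-like levels of Igfbp7 and other members was not tested.

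Setting SSPC-1-like against SSPC-2-like cells asks how the family is divided between these 2 classes, neither of which is a pure progenitor state. Mature osteoblast markers stood at 5089 CPM in the control SSPC-2-like class and at 13326 CPM in the SSPC-2/osteoblast-like class. Tendon markers of the SSPC-1-like cells stood at 3748 CPM in the control and 7355 CPM in the Piezo1 fl/fl library, beside SSPC-1 markers at 8921 and 6459 CPM. Igf1 and 6 binding proteins were higher in SSPC-1-like cells by 2-fold or more in both libraries, and 0 members were lower by as much. Of the 9 members with at least 20 UMIs over both sides, 7 were past 2-fold upward in the control library, where 15.1% of 11283 genes were as much higher and 5.62% as much lower. In the Piezo1 fl/fl library 7 of 9 were past 2-fold upward, where 9.36% of 10774 genes were as much higher and 6.51% as much lower. The median log2 ratio of the 9 members was 3.10 in the control library, against 0.23 over all genes, and 1.61 against 0.11 in the Piezo1 fl/fl library.

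Among the ligands, Igf1 was 4.65-fold higher in SSPC-1-like cells of the control library (log2 2.22, 2.14 to 2.29) and 2.99-fold higher in the Piezo1 fl/fl library (log2 1.58, 1.51 to 1.65). Of the receptors, Igf1r stayed under 2-fold in both libraries, with log2 ratios of 0.63 (0.47 to 0.79) and 0.39 (0.21 to 0.57). Igf2r was the only member whose direction differed between libraries. Its log2 ratio was 0.70 (0.58 to 0.82) in control cells and -0.25 (-0.43 to -0.07) in the Piezo1 fl/fl library, and the difference was not tested.

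Among the binding proteins, Igfbp3 had the largest ratio with counts on both sides, 36.2-fold in the control (log2 5.18, 4.78 to 5.60) and 16.1-fold in the Piezo1 fl/fl library (log2 4.01, 3.67 to 4.37). Igfbp5 was 12.5-fold higher (log2 3.64, 3.59 to 3.69) and 7.66-fold higher (log2 2.94, 2.89 to 2.99). Igfbp6 was 12.2-fold and 5.35-fold higher, Igfbp7 8.59-fold and 3.8-fold, and Igfbp4 6.85-fold and 2.71-fold. Igfbp2 had 27 UMIs against 0 in the control library, which is at least 10.5-fold when 3 counts are allowed on the empty side, and 41 against 11 UMIs in the Piezo1 fl/fl library (3.16-fold). With Igfbp2 placed at that bound the control median stayed at 3.10. Which library had the larger ratio depended on the clustering for Igf1 and Igfbp3. At a finer clustering (resolution 0.8) the log2 ratio of Igf1 was 2.68 in control and 3.36 in Piezo1 fl/fl cells, and that of Igfbp3 was 5.22 and 6.66, while that of Igfbp7 was 3.03 and 2.81.

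**Figure D2:**
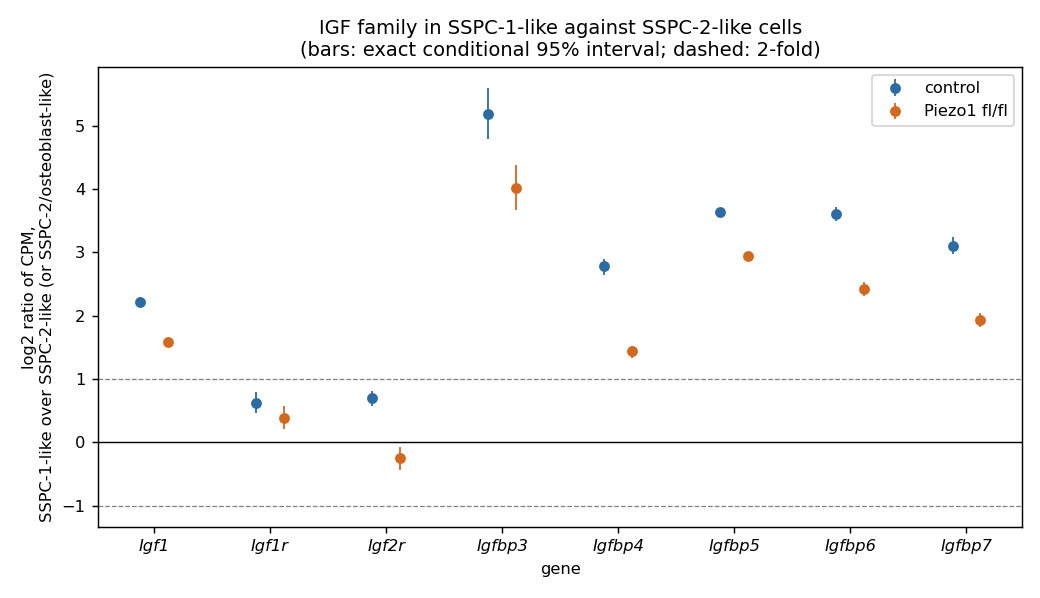
Log2 ratio of SSPC-1-like progenitors to SSPC-2-like cells for the IGF family genes in the control and Piezo1 fl/fl libraries, with exact 95% intervals and dashed lines at 2-fold. Igf1 and Igfbp3 to Igfbp7 lie beyond 2-fold in both libraries, Igf1r lies inside, and Igf2r is at 0.70 in control cells and at -0.25 in the Piezo1 fl/fl library.

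The wider IGF pathway was followed in 36 further genes. In each library 27 of them had at least 20 UMIs over both sides of this comparison. In the control library 8 were higher in SSPC-1-like cells by 2-fold or more and 2 lower, against 15.1% and 5.62% of all genes. Their median log2 ratio was 0.58, against 0.23 over all genes. In the Piezo1 fl/fl library 7 were higher and 2 lower, against 9.36% and 6.51% of all genes, with a median of 0.45 against 0.11. Past 2-fold in the same direction in both libraries were Pappa2, Gab1, Foxo1, Ghr and H19, which were higher in SSPC-1-like cells, and Htra1, which was lower.

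Pappa2 encodes a protease that cuts IGFBP3 and IGFBP5. It stood at 84.6 CPM against 0.751 CPM in the control library and at 75.2 against 7.61 CPM in the Piezo1 fl/fl library. Htra1, a secreted serine protease, stood at 291.6 CPM in SSPC-1-like against 605.2 CPM in SSPC-2-like control cells, and at 151.1 against 424 CPM in the Piezo1 fl/fl library. Pappa, the protease of IGFBP4, had log2 ratios of 0.11 (-0.39 to 0.60) and -1.24 (-2.07 to -0.45). Of the stanniocalcins, which block the proteases made from Pappa and Pappa2, Stc2 had log2 ratios of 0.78 (0.56 to 1.01) and 1.40 (1.18 to 1.62), while Stc1 had at most 7 UMIs on a side.

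Ghr, the growth hormone receptor that drives Igf1 transcription in liver, stood at 173.2 against 79.8 CPM in the control and 205.9 against 82.3 CPM in the Piezo1 fl/fl library. Socs2, a feedback inhibitor of growth hormone signalling, had log2 ratios of 0.81 (0.59 to 1.03) and 0.88 (0.71 to 1.05). Downstream of the receptors, the insulin receptor gene Insr had log2 ratios of 1.53 (1.09 to 1.99) and 0.96 (0.43 to 1.52). The adaptor Irs1 had log2 ratios of 0.13 (-0.37 to 0.62) and 0.46 (-0.05 to 0.97), and Irs2 had 0.26 (0.03 to 0.49) and 0.74 (0.41 to 1.08). The adaptor Gab1 had log2 ratios of 2.12 (1.84 to 2.42) and 1.47 (1.21 to 1.74), and Foxo1, a transcription factor held back by AKT, had 1.35 (1.08 to 1.64) and 1.06 (0.77 to 1.36). H19, the imprinted noncoding RNA beside Igf2, stood at 767.8 against 42 CPM in the control and at 1116 against 457.1 CPM in the Piezo1 fl/fl library, while Igf2 itself was nearly absent.

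The 2 libraries were then set side by side within each of the 8 shared classes, with SSPC-2-like and mature osteoblast-like cells pooled as osteogenic. Of 64 pairs of a member and a class with at least 20 UMIs, 9 were past 2-fold. Within SSPC-1-like cells 1 of 9 members was past 2-fold, against 7.34% of 11115 genes. This was Igf2r, with 1375 UMIs (302.2 CPM) in the control and 513 UMIs (127.3 CPM) in the Piezo1 fl/fl library, a ratio 2.37-fold lower (log2 -1.25, -1.40 to -1.10). The other 8 members differed less there. Igf1 had a log2 ratio of 0.42 (0.38 to 0.47), Igfbp6 of -0.36 (-0.41 to -0.31), Igfbp5 of 0.08 (0.06 to 0.10) and Igfbp3 of -0.08 (-0.19 to 0.02). The summed markers of the SSPC-1-like cells also differed, with SSPC-1 markers at 8921 CPM in the control and 6459 CPM in the Piezo1 fl/fl library, tendon markers at 3748 and 7355 CPM and SSPC-2 markers at 1961 and 376.4 CPM. Their part in the Igf2r ratio was not tested.

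**Figure D3:**
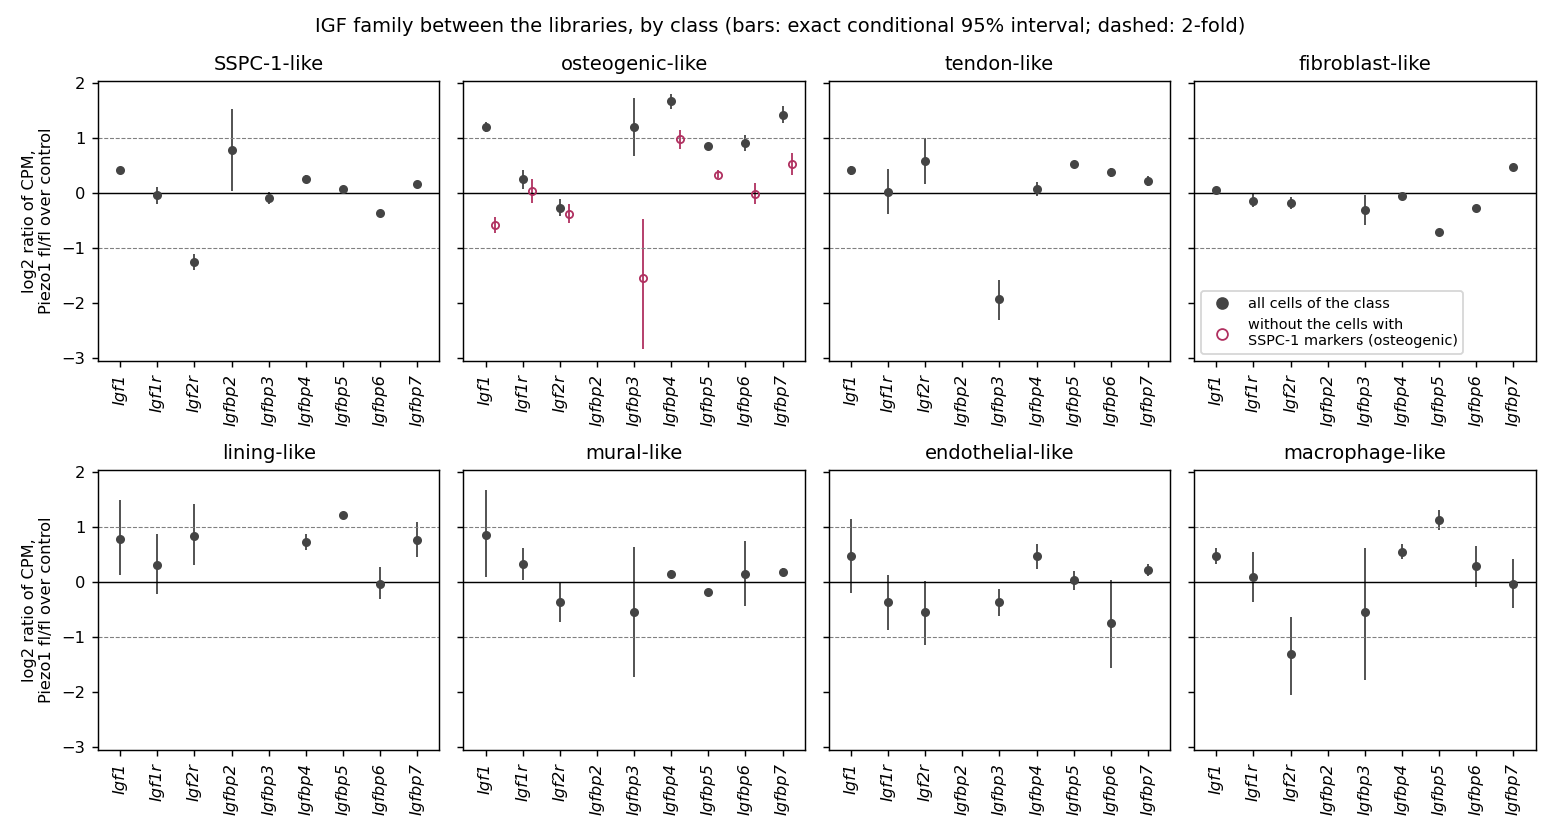
Log2 ratio of the Piezo1 fl/fl over the control library for the IGF family genes within each shared class, with exact 95% intervals and dashed lines at 2-fold. Igf2r in SSPC-1-like cells (-1.25) and Igfbp3 in tendon-like cells (-1.93) lie below 2-fold, and Igfbp5 in lining-like cells (1.22) and 4 genes in osteogenic-like cells lie above it. Open circles give osteogenic-like cells without 172 unnamed Piezo1 fl/fl cells, with all control cells kept. Those 172 cells carried both SSPC-1 markers (4715 CPM) and SSPC-2 markers (4456 CPM).

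Within tendon-like cells (210 and 390 cells) 1 of 8 members was past 2-fold, against 10.3% of 8966 genes. Igfbp3 had 213 UMIs in the control and 96 UMIs in the Piezo1 fl/fl library, a ratio 3.82-fold lower (log2 -1.93, -2.30 to -1.58). At a coarser clustering (resolution 0.2), where Piezo1 fl/fl SSPC-1-like cells merged into this class, the log2 ratio for Igfbp3 was 0.35. The summed SSPC-1 markers of these cells were 3378 and 2853 CPM the summed tendon markers 27872 and 22132 CPM and the summed fibroblast markers 1291 and 3622 CPM, and their part in this ratio was not tested. Igf1 was 1.33-fold higher there (log2 0.42, 0.34 to 0.49) and Igfbp5 1.45-fold higher (log2 0.53, 0.48 to 0.59), but the log2 ratio for Igfbp5 was -0.05 with cells classed by their own marker counts.

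Within lining-like cells (54 and 123 cells) 1 of 7 members was past 2-fold, against 10.7% of 7271 genes. Igfbp5 stood at 5189 CPM in the control and 12093 CPM in the Piezo1 fl/fl library, 2.33-fold higher (log2 1.22, 1.16 to 1.28). With cells classed by their own marker counts the log2 ratio for Igfbp5 was 0.54. The summed lining markers, which include Prg4, stood at 147819 CPM in the control and 48633 CPM in the Piezo1 fl/fl cells, and their part in this ratio was not tested. Igf2r (log2 0.84, 0.30 to 1.41), Igf1 (0.79, 0.13 to 1.50), Igfbp7 (0.77, 0.46 to 1.09) and Igfbp4 (0.73, 0.59 to 0.87) were also higher in the Piezo1 fl/fl cells but under 2-fold. Of these, Igf1 had a log2 ratio of -0.72 with cells thinned to 2500 UMIs, and Igf2r one of 0.11 with cells classed by their own marker counts.

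Within fibroblast-like cells 0 of 8 members were past 2-fold, against 5.41% of 12257 genes, and the same held in mural-like cells (0 of 8, against 4.18% of 8699 genes) and endothelial-like cells (0 of 8, against 7.3% of 7210 genes). The largest fibroblast ratio was that of Igfbp5, at 8558 CPM in the control and 5267 CPM in the Piezo1 fl/fl library (log2 -0.70, -0.72 to -0.69), followed by Igfbp7 at 859.3 and 1194 CPM (log2 0.47, 0.44 to 0.51). The summed chondrocyte markers of the fibroblast-like cells were 1430 CPM in the control and 83.8 CPM in the Piezo1 fl/fl library. Their summed fibroblast markers were 9990 and 10681 CPM. The part of these markers in the ratios was not tested. The class consisted of 2 clusters in the control library and 5 in the other, and the family varied between them. In the control library the cluster led by Col2a1, Pi16 and Clec3b had 10602 CPM of Igfbp5 and 612.9 CPM of Igf1. The cluster led by Cxcl14 and Myoc had 6264 and 1624 CPM. In the Piezo1 fl/fl library Igfbp5 stood at 11870 CPM in the cluster led by Pi16 and at 2416 CPM in the cluster led by Cfd, and Igf1 stood at 607 and 1590 CPM in the same clusters.

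Within macrophage-like cells (415 and 291 cells) 2 of 8 members were past 2-fold, against 10.1% of 9390 genes. Igf2r had 83 UMIs (44 CPM) in the control and 23 UMIs (17.6 CPM) in the Piezo1 fl/fl library (log2 -1.32, -2.06 to -0.64), but the log2 ratio was -0.04 when cells with 500 to 6000 genes were kept. Igfbp5 stood at 208.3 and 453.7 CPM (log2 1.12, 0.94 to 1.31), which is 2.43% and 3.75% of its highest class and within the range of the 7 stromal genes. Igf1, which lay above that range, had a log2 ratio of 0.48 (0.33 to 0.62), and Igfbp4 had one of 0.55 (0.41 to 0.69), which was -0.05 when cells with 500 to 6000 genes were kept. The summed markers of these cells also differed, with macrophage markers at 14433 and 18899 CPM, other blood markers at 1466 and 604.9 CPM, chondrocyte markers at 1183 and 15.3 CPM and SSPC-2 markers at 529.5 and 255.1 CPM, and their part in these ratios was not tested.

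Within osteogenic cells 4 of 8 members were past 2-fold upward in the Piezo1 fl/fl library, against 6.21% of 10862 genes past 2-fold in either direction. Igfbp4 stood at 111.6 CPM in the control and 355.5 CPM in the Piezo1 fl/fl library (3.18-fold, log2 1.67, 1.53 to 1.81), Igfbp7 at 91.9 and 246.8 CPM (2.69-fold, log2 1.43, 1.27 to 1.58), Igf1 at 311.2 and 714.1 CPM (2.29-fold, log2 1.20, 1.11 to 1.29), and Igfbp3 at 9.19 and 21.1 CPM (2.29-fold, log2 1.20, 0.67 to 1.73). The summed SSPC-1 markers were also higher in these cells, at 1163 CPM in the control and 1932 CPM in the Piezo1 fl/fl library, while SSPC-2 markers stood at 22933 and 17448 CPM, mature osteoblast markers at 9403 and 13326 CPM and tendon markers at 250.8 and 1046 CPM.

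At the finer clustering, whose parts were looked at after these values were seen, 172 of the 561 Piezo1 fl/fl cells (30.7%) separated from the other 389. These 172 cells were led by Ostn, Col8a2, Col12a1, Cdh11 and Grem1, and the marker lists gave them no name. Their summed SSPC-1 markers were 4715 CPM, SSPC-2 markers 4456 CPM and osteoblast markers 1731 CPM, against 976.8, 21905 and 17304 CPM in the other 389. Igf1 stood at 2191 CPM in the 172 cells and 207.6 CPM in the 389, Igfbp3 at 73.4 and 3.15 CPM, Igfbp4 at 749.7 and 220.2 CPM, and Igfbp5 at 2151 and 803.8 CPM. Without the 172 cells, 0 of 8 members were past 2-fold upward and 1 was past it downward, against 5.4% of 10656 genes past 2-fold in either direction. Cells were left out on the Piezo1 fl/fl side only, and all 810 control cells were kept. The control cells also parted, into 560 SSPC-2-like cells (Igf1 at 246.9 CPM) and 242 named mature osteoblast (475.6 CPM), so the sides can differ in mix. The log2 ratio was then -0.58 for Igf1, -1.55 for Igfbp3 (8 against 54 UMIs), 0.98 for Igfbp4, just under 2-fold, and 0.54 for Igfbp7. The summed tendon markers also differed between these cells, at 2545 CPM in the 172 and 531.3 CPM in the 389, and the part of neither marker list was tested.

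**Figure D4:**
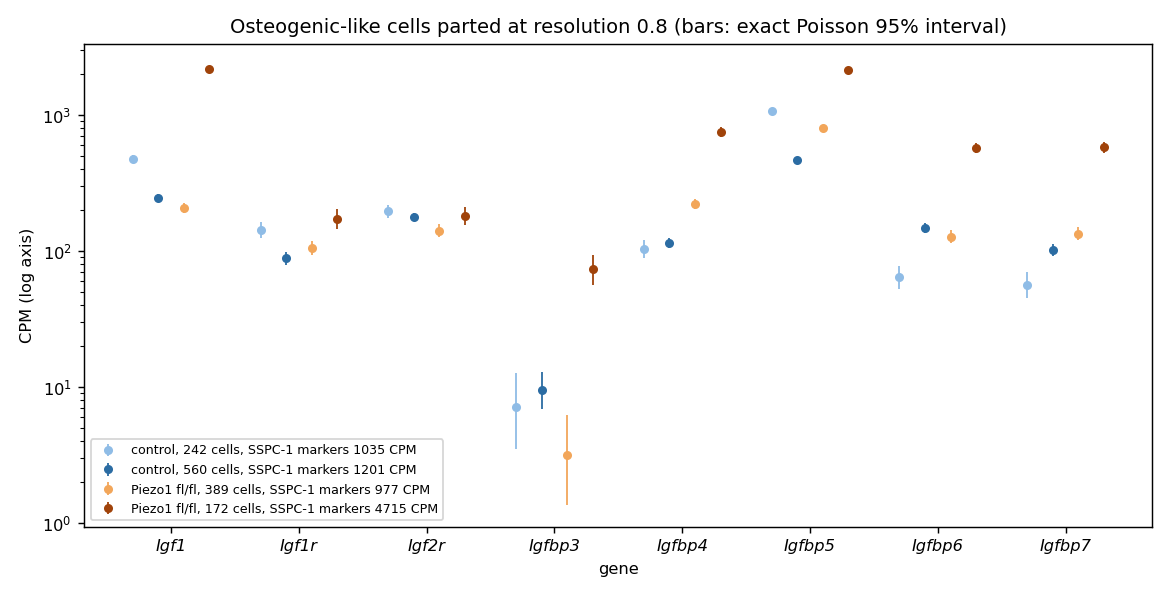
Levels (CPM, log scale) of the IGF family genes in the parts of the osteogenic-like cells found at a finer clustering resolution, with exact 95% Poisson intervals. The 172 unnamed Piezo1 fl/fl cells, with both SSPC-1 and SSPC-2 markers, stand above the other parts for Igf1 (2191 CPM) and 5 binding proteins. These are Igfbp3 (73.4 CPM), Igfbp4 (749.7 CPM), Igfbp5 (2151 CPM), Igfbp6 (570.9 CPM) and Igfbp7 (576.6 CPM). For Igf1r their interval overlaps that of the 242 control cells, and for Igf2r they are not the highest.

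The genes with profiles most like each member were named over the 10 control classes, among 10668 genes with at least 100 UMIs in that library, by Pearson's r of log2(CPM + 1). Those of Igf1 were Wipf1 (r = 0.95), Chd9 (0.94) and Arl5a (0.94), and over the 10 Piezo1 fl/fl classes the same genes had r of 0.90, 0.57 and 0.83. Those of Igfbp5 were Tmem100 (0.93), Cygb (0.93) and Rab22a (0.91), with 0.89, 0.76 and 0.74 in the Piezo1 fl/fl library. For Igfbp6 they were Gspt2 (0.98), Tram2 (0.95) and Apod (0.94), with 0.70, 0.61 and 0.86. For Igfbp7 they were Zyg11b (0.95), Prrc2b (0.95) and Itga1 (0.94), with 0.75, 0.69 and 0.86, and for Igfbp4 they were Cinp (0.96), Tpd52l2 (0.95) and AW549877 (0.94), with 0.54, 0.66 and 0.91. Those of Igf1r were Vangl2 (0.90), Fbxl7 (0.87) and Vangl1 (0.86), with 0.07, 0.44 and 0.49 in the Piezo1 fl/fl library, and those of Igf2r were Adal (0.94), Shc1 (0.87) and Cul7 (0.85), with -0.07, 0.28 and 0.66. For Igfbp3 they were Ubr2 (0.91), Usp33 (0.91) and Gstt2 (0.91), with 0.03, 0.20 and 0.76. The profiles of Igfbp2 and Igf2 rest on few UMIs. For Igfbp2 they were Axin2 (0.95), Rpp25l (0.94) and Tef (0.93), with 0.69, 0.56 and 0.66, and for Igf2 they were Rasgrf2 (0.86), Zfp609 (0.86) and Sh3rf1 (0.84), with 0.03, 0.56 and -0.07. Of the 30 genes named in this way over all 10 members, 6 had r of at least 0.8 in the Piezo1 fl/fl library. With 10 classes that share a library and its depth these are descriptions only.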

How the data were processed

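Single-cell RNA was measured in 2 BD Rhapsody libraries, 1 per genotype. The authors deposited raw counts, which are UMIs per gene and cell without normalization. The submitters' processing notes name fastp, UMI-tools, STAR and Seurat 4.0.3, while the genome build for these counts is not given in the sources used here. Before filtering there were 6118 control barcodes (28030299 UMIs in all) and 7469 Piezo1 fl/fl barcodes (32337308 UMIs). Of the 31253 gene identifiers, 31107 were found in GENCODE vM21 (GRCm38), which gave positions.

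Kept cells had 1000 to 5000 genes and a mitochondrial share below 25%, after Scrublet (scanpy 1.11.5, expected rate 0.05) called 46 of 5551 (0.829%) and 67 of 6784 (0.988%) doublets. Each library was clustered alone in Seurat 5.3.0 (R 4.3.3) with LogNormalize, 2000 features less the members, pathway genes and other lists, 30 principal components, a graph on 20 and resolution 0.4. Clusters were named from 16 marker lists, with a score of at least 0.7, at least 3 detected markers and a marker among the 20 leading genes. A cluster led by immunoglobulin genes was left unnamed. These naming thresholds were set after the clusters were seen.

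UMIs were summed per class over the class total (CPM). Poisson intervals were used for levels, conditional intervals for ratios and binomial intervals for shares, all exact and at 95% (scipy 1.17.1). The fold threshold of 2 was applied with 0.5 UMIs added to both counts among genes with at least 20 UMIs over both sides. No test was possible with 1 library per genotype, so no p-value is given. PCR errors and UMI collisions are outside these intervals. Scripts were tested on simulated data. The members and gene lists were chosen with earlier results of these data known. All 10 members are named, with pathway genes past 2-fold in both libraries or acting on binding proteins or receptors, and the 3 genes most like each member. For each comparison, 13 other settings and 2 more, chosen after seeing the data, were tried where they applied. The finer split of osteogenic cells was also chosen after seeing the data.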

Additional observations from a re-analysis of the deposited data

Results flagged for a closer look

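Some members differed in opposite directions in the 2 libraries or in different classes, with counting intervals off equality on both sides. None of these differences between groups was tested, because there was 1 library per genotype. The log2 ratio of Igf2r of SSPC-1-like progenitors to SSPC-2-like cells was -0.25 in the Piezo1 fl/fl library, against 0.70 in the control library. Igf2r in the Piezo1 fl/fl over the control library had a log2 ratio of 0.84 in lining-like cells, -1.25 in SSPC-1-like cells and -1.32 in macrophage-like cells, the last from 23 against 83 UMIs. Igfbp3 had a log2 ratio of 1.20 in osteogenic cells and -1.93 in tendon-like cells. The osteogenic ratio was -1.55 without the 172 unnamed cells that carried both SSPC-1 and SSPC-2 markers. Igfbp5 had a log2 ratio of 1.22 in lining-like cells and -0.70 in fibroblast-like cells.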

How the results depend on the processing

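All 14 ratios of SSPC-1-like progenitors to SSPC-2-like cells past 2-fold kept their direction and their side of 2-fold under every alternative that gave a value, but their sizes moved, most in the Piezo1 fl/fl library, where log2 ratios ranged from 1.41 to 3.36 for Igf1, 1.50 to 4.13 for Igfbp2 and 3.89 to 6.66 for Igfbp3, each highest at resolution 0.8. The count of members past 2-fold ranged from 6 to 8 in the control (15 alternatives) and from 6 to 7 in the Piezo1 fl/fl library (13 alternatives). At resolution 0.2 SSPC-1-like cells of the Piezo1 fl/fl library merged with tendon-like cells and gave no value. Of the 9 ratios between libraries past 2-fold, only Igf2r in SSPC-1-like cells stayed past it in every alternative that gave a value (log2 -1.32 to -1.18), and Igfbp5 in lining-like cells came to 0.54 with classes from each cell's own markers. In macrophage-like cells Igf2r ranged from -1.31 to -0.04, closest to equality with cells of 500 to 6000 genes, and Igfbp5 from 0.30, with doublets kept, to 1.47. The count of 9 among 64 pairs became 4 among 48 pairs in 6 classes when clusters came from 50% of UMIs and levels from the rest. It became 18 among 75 pairs in 8 classes when at least 1 UMI sufficed to enter. These counts thus rest on different sets of pairs, and no share over all genes was worked out under these settings. Of all 64 ratios between libraries, 37 kept their sign in every alternative. Among those past 2-fold, directions turned for Igf1 in osteogenic cells at resolution 0.2 (-0.58) and 0.8 (-0.57), for Igfbp3 in osteogenic cells at resolution 0.2 (-1.47), at resolution 0.8 (-1.42), with each cell's own markers (-0.70) and with the 50% split (-1.55), and for Igfbp3 in tendon-like cells at resolution 0.2 (0.35), and the cause was not tested. Among those under 2-fold, turns included Igf1 in lining-like cells (-0.72 when thinned) and Igfbp4 in macrophage-like cells (-0.05 with 500 to 6000 genes). The class with the highest level of each member stayed the same in the Piezo1 fl/fl library for 5 of 9 members at resolution 0.2, 4 of 9 with each cell's own markers and 5 of 9 with the median of ratios as the scale. No paired analysis was possible because there was 1 library per genotype. Depth limits Igf2 and Igfbp2, with 13 and 39 control UMIs, most.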

Other observations

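An unnamed cluster and a class of blood cells also held UMIs of the family. In the unnamed cluster of 144 Piezo1 fl/fl cells led by Igkc, Cd74 and H2-Eb1, genes of B cells and antigen presentation, Igf1 stood at 431.8 CPM, Igfbp4 at 158.8 CPM and Igfbp5 at 146.8 CPM. In the 88 other blood-like cells led by the neutrophil genes Ngp, S100a8 and S100a9, Igf1r stood at 134 CPM and Igf2r at 67 CPM.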
